A study of Homo sapiens with 4 samples.

Results

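A group of 10 genes of glycolysis, angiogenesis and related parts of the hypoxia response were examined in 5hmC-Seq data of FADU cells, an established line of human hypopharyngeal squamous carcinoma. The genes were SLC2A1, SLC2A3, HK1, HK2, LDHA, PKM, VEGFA, CA9, BNIP3 and PDK1. The data were the positions of 500 bp windows of hg19 in the deposited read count table, which holds 956365 windows. A window was counted for a gene when its midpoint lay between 3000 bp upstream of the start site of the canonical transcript and the end of that transcript. Of the 717 windows laid on the 10 genes in this way, 395 were in the table, and these are called listed windows below.

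The series has 4 groups with 1 library each. They were scrambled control cells under normoxia, TET1-si cells under normoxia, scrambled control cells kept at 1% O2 for 18 h, and TET1-si cells kept at 1% O2 for 19 h. TET1-si is a knockdown of TET1, an enzyme that oxidises 5-methylcytosine (5mC) to 5-hydroxymethylcytosine (5hmC). The names of the 4 value columns of the table match no sample label, so that no column could be given to a condition and none was used. No comparison between normoxia and hypoxia, or between control and knockdown, was therefore made, and no test was run. The sample titles name hMeDIP-seq, the labels describe precipitation with a 5-methylcytidine antibody, and the paper describes 5hmC sequencing, so that the modified base behind the windows is uncertain. A listed window passed the minimum set for the table in a way that is not stated, and a window that is not listed may still have had reads.

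Hypoxia-inducible factors (HIFs) are transcription factors that accumulate when oxygen is low and bind a short core sequence, ACGTG or GCGTG, near the genes they activate. Many of these genes shift cells from respiration to glycolysis, and others promote the growth of blood vessels or the control of pH. Promoters of such genes often lie in CpG islands, stretches rich in CpG dinucleotides in which cytosine is usually not methylated. 5hmC is formed from 5mC, and in many cell types it is found beside CpG islands and along gene bodies more than inside the islands.

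The core sequences nearest upstream of the start site are shown first for 8 of the genes. They fall into listed windows in some genes and outside them in others. Whether a HIF binds at any of them was not tested. Each stretch is from GRCh37, whose coordinates on these chromosomes are those of hg19, and is written in the direction of transcription. Capitals mark the core sequence on either strand, which reads CACGT or CACGC where it lies on the opposite strand.
HK2, chr2:75061186-75061230, plus strand: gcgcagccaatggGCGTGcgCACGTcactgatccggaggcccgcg
CA9, chr9:35673895-35673923, plus strand: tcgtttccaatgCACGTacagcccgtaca
HK1, chr10:71078462-71078506, plus strand: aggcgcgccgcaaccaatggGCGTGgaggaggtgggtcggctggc
LDHA, chr11:18416017-18416061, plus strand: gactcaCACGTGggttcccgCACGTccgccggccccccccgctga
VEGFA, chr6:43737801-43737845, plus strand: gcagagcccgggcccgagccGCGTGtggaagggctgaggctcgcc
BNIP3, chr10:133795507-133795551, minus strand: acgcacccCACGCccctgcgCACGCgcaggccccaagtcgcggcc
PDK1, chr2:173420798-173420817, plus strand: cgcCACGTccctCACGTacc
PKM, chr15:72524069-72524097, minus strand: aggacctccaacCACGCacaagtctgcag

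The nearest core sequence lay in a listed window in 2 of these 8 genes. With positions counted from the start site, it began at -48 bp in HK2 and at -18 bp in CA9, both in the window that holds the start. It began at -8 bp in PDK1, at -73 bp in LDHA, at -104 bp in BNIP3, at -121 bp in HK1 and at -127 bp in VEGFA, each in a window that was not listed. The nearest core sequence of PKM, at -554 bp, was also outside a listed window. In the 2 genes not shown, it began at -1162 bp in SLC2A1, in a listed window, and at -905 bp in SLC2A3, in a window that was not listed. The same count was not made for all protein-coding genes. The PKM and PDK1 stretches overlap exons of other transcripts of these genes, and the PDK1 stretch also overlaps an exon of the antisense gene PDK1-AS1. The CA9 stretch overlaps an exon of the neighbouring gene ARHGEF39.

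VEGFA, the growth factor that drives the sprouting of blood vessels, had 4 of its 7 core sequences in listed windows, all farther upstream. The ACGTG at -976 bp, the farthest of these that reads ACGTG on the strand of the gene, is shown because it sits outside the CpG-rich part of the promoter, in a window with 6 CpG sites.
VEGFA, chr6:43736952-43736996, plus strand: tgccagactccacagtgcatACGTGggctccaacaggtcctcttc

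In the 3000 bp upstream of the 10 starts, the core sequence had 78 matches on both strands, and 39 of them were in listed windows. The share of matches in listed windows was not counted for all protein-coding genes, so these counts cannot be set against it. A palindromic CACGTG gives a match on each strand, and with overlapping matches joined there were 72 separate sites. BNIP3 had the most, with 12 matches, of which 3 were in listed windows. CA9 and SLC2A1 had 5 matches each, with 1 in a listed window in CA9 and all 5 in SLC2A1. The median was 7.5 matches for the 10 genes and 5 for all protein-coding genes. All 10 genes had at least 1 match, as did 97.5% of the 19827 protein-coding genes examined, so that the presence of a match does not set these genes apart. Of the 60 windows upstream, 36 held a match anywhere in the window, bases after the start included, and 34 held a match inside the 3000 bp. Of the 36 windows, 22 were listed, against 14 of the 24 windows without a match. The presence of a match in the 3000 bp is a description of the letters only, and says nothing of whether a HIF was bound.

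**Figure D1:**
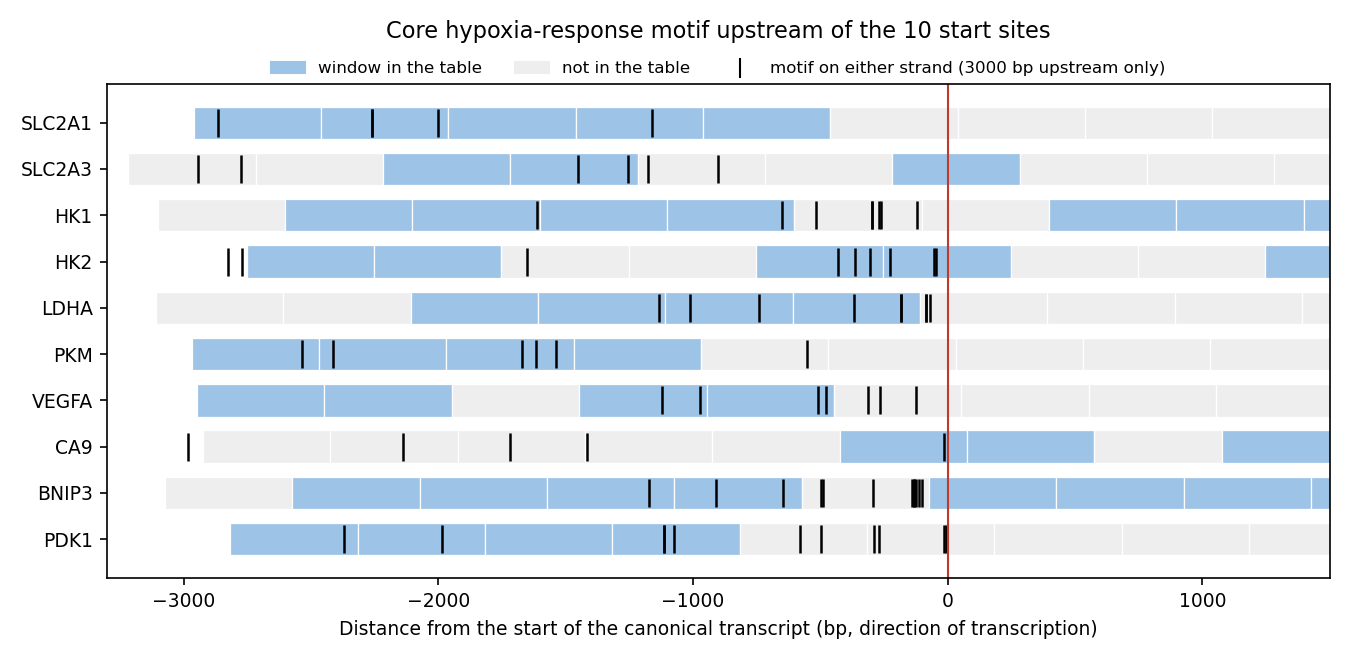
Windows from about 3000 bp upstream to 1500 bp downstream of each start site (x axis, distance in bp in the direction of transcription; the red line is the start). Blue windows are listed and grey windows are not, and black ticks mark the 78 matches of the core sequence in the 3000 bp upstream. The ticks closest to the start lie on blue in HK2, CA9 and SLC2A1, and on grey in SLC2A3, HK1, LDHA, PKM, VEGFA, BNIP3 and PDK1.

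All 10 genes had at least 1 listed window in the 3000 bp upstream of the start, compared with 74.7% of all protein-coding genes. The number was 5 of 6 windows in SLC2A1, 4 of 6 in HK1, HK2, LDHA, PKM, VEGFA, BNIP3 and PDK1, 2 of 6 in SLC2A3 and 1 of 6 in CA9. At least 4 listed windows were thus found upstream of 8 of the 10 genes and of 28.8% of all protein-coding genes. Together 36 of the 60 windows were listed, where 18.5 would be predicted from the share of listed windows among autosomal windows matched for CpG number and GC content. With the prediction made from the promoters of all protein-coding genes, the ratio of listed to predicted windows was 1.43 in place of 1.95. PDK1, which encodes a kinase that keeps pyruvate out of the mitochondrial citric acid cycle, had 4 listed windows upstream against 1.21 predicted. CA9, which encodes a carbonic anhydrase on the cell surface that helps to control pH, had 1 against 1.91 predicted.

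The window at the start site itself was also taken alone. In SLC2A1, HK2, PKM, VEGFA, CA9 and PDK1 its midpoint lies upstream, so that it is also among the upstream windows above. In CA9 it is the only listed upstream window. The window that holds the start was listed in SLC2A3, HK2, CA9 and BNIP3 and was not listed in SLC2A1, HK1, LDHA, PKM, VEGFA and PDK1. These are 4 of 10 genes, compared with 26.7% of all protein-coding genes. In 8 of the genes this window has 40 or more CpG sites, and it was listed in 2 of them, BNIP3 and HK2, with 63 and 54 CpG sites. Among all protein-coding genes with 40 or more CpG sites in this window, 18.8% had it listed. The start windows of SLC2A3 and CA9 have 9 and 7 CpG sites, and both were listed. Among all protein-coding genes with under 10 CpG sites in this window, 30.5% had it listed.

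The sequences just upstream of the start are printed for 2 genes with a CpG-rich start window, which has 54 CpG sites in HK2 and 40 in SLC2A1. HK2 is shown because its start window was listed, and SLC2A1 because its start window was not and no annotated exon covers the stretch. The HK2 stretch overlaps an exon of the divergent noncoding RNA HK2-DT. Capitals mark each CpG.
HK2, chr2:75061104-75061253, plus strand: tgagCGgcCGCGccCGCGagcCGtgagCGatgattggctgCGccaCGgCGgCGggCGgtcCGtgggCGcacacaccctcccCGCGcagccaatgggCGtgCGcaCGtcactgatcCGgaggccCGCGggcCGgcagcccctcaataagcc
SLC2A1, chr1:43424565-43424689, minus strand: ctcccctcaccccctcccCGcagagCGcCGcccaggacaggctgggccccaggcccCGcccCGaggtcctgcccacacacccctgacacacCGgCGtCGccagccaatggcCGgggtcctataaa

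The HK2 stretch of 150 bp has 23 CpG sites. The SLC2A1 stretch of 125 bp, which ends 26 bp before the start, has 9. The stretches differ more in CpG number than the windows that hold them. HK2, the inducible hexokinase that traps glucose in the cell, differed in this from HK1, the hexokinase of most tissues, whose start window with 59 CpG sites was not listed.

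Around the start sites that were not listed, the absence extended over several windows in a row. In PKM, which encodes the enzyme of the last step of glycolysis, 9 windows from -969 to 3530 bp were not listed. In LDHA, which encodes a lactate dehydrogenase subunit that turns pyruvate into lactate, there were 8 such windows, from -109 to 3890 bp. VEGFA had 7 such windows, from -447 to 3052 bp. In PDK1 there were 5, from -817 to 1682 bp, in SLC2A1 4, from -461 to 1538 bp, and in HK1 2, from -602 to 397 bp. In BNIP3, which encodes a mitochondrial protein that promotes mitophagy, the start window was listed and the window next upstream, with 78 CpG sites, was not.

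Counted in 500 bp steps by midpoint, 8 of the 10 genes had a listed window from 1500 to 1000 bp upstream of the start. The number was 3 of 10 in the 500 bp on each side of the start, and 2 of 10 from 500 to 1000 bp downstream, where HK1 and BNIP3 were listed. It was again 8 of 10 from 3500 to 4000 bp downstream. Among all protein-coding genes the share was 43.4% from 1500 to 1000 bp upstream, 34.8% in the 500 bp before the start, 24.6% in the 500 bp after it, 37.4% from 500 to 1000 bp downstream and 35.5% from 3500 to 4000 bp downstream. All genes thus had their lowest share in the first 500 bp downstream, and the 10 genes had theirs in the next step. With 10 windows a step, this difference was not tested. The median number of CpG sites over the 10 genes was 6 from 1500 to 1000 bp upstream, 50 in the first 500 bp downstream and 5.5 from 3500 to 4000 bp downstream.

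**Figure D2:**
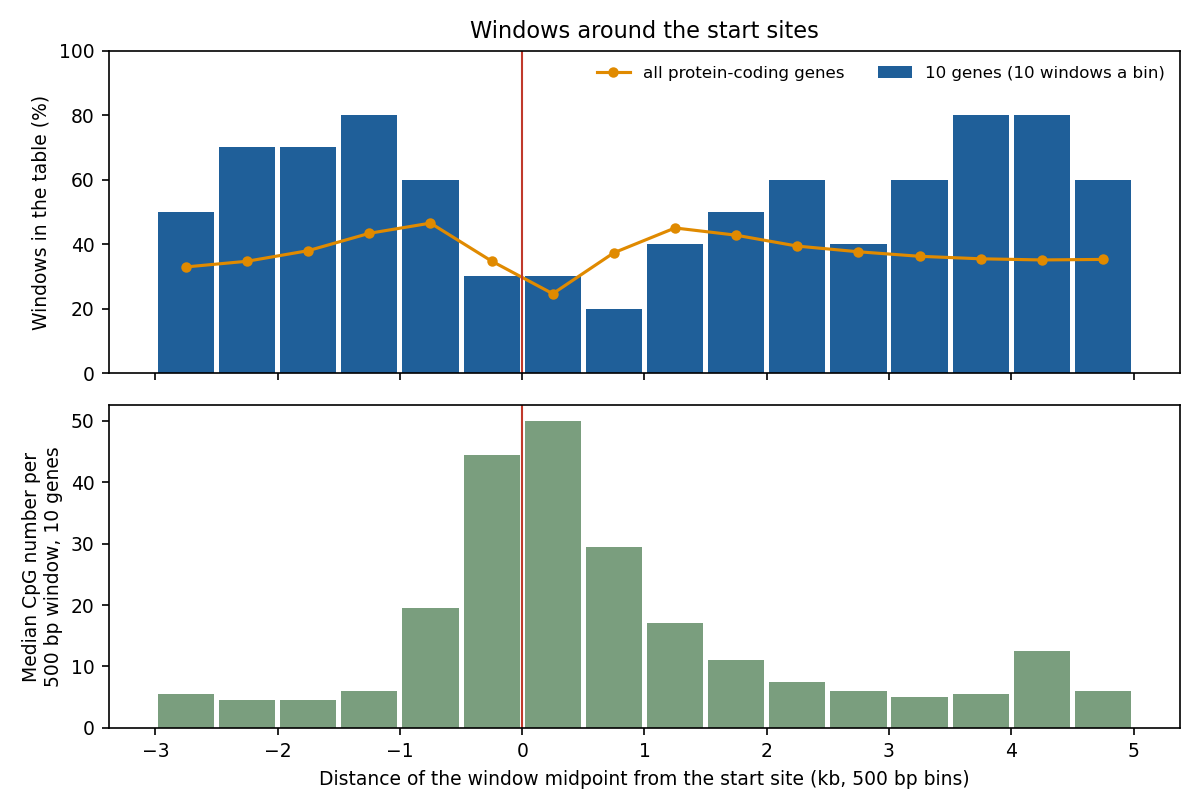
Upper panel: share of windows that were listed (y axis, %) in 500 bp bins of distance from the start (x axis, kb), for the 10 genes (bars, 10 windows a bin) and for all protein-coding genes (line). Lower panel: median CpG number per window in the 10 genes. The bars reach 80% from 1500 to 1000 bp upstream and fall to 20% from 500 to 1000 bp downstream, close to where the CpG number is highest.

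Over the whole region from 3000 bp upstream to the transcript end, the share of listed windows ranged from 16.2% to 93.2%. Of all autosomal windows, 17.6% were listed. Across all protein-coding genes the median share of a gene's windows was 26.7%, and it was 59.7% across the 10 genes. The share was above the median of all genes in 9 of the 10, by little in SLC2A3. The intervals given are 95% Wilson intervals. They cover counting error only and take each window as a separate draw, which adjacent windows are not.

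Of the glucose transporters, SLC2A1 (GLUT1), the main transporter of many tumor cells, had 68 of 73 windows listed, or 93.2% (interval 84.9 to 97.04). The gene lies on chromosome 1 from 43391024 to 43424539 on the minus strand. Its 52 windows from 7539 to 33538 bp after the start were listed without a break, a run of 26000 bp and the longest in the 10 genes. Of the 5 windows that were not listed, 4 formed the stretch at the start site, and the other one, from 7039 to 7538 bp, has no CpG site. The unlisted windows had a median of 40 CpG sites and the listed ones a median of 7. SLC2A3 (GLUT3), a transporter with high affinity for glucose, had 11 of 40 windows listed, or 27.5% (interval 16.1 to 42.8). It lies on chromosome 12 from 8071826 to 8088783 on the minus strand. None of the 4 windows of its first intron and 6 of the 25 windows of its later introns were listed.

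The hexokinases catalyse the first step of glycolysis. HK1, on chromosome 10 from 71078603 to 71161638, had 100 of 172 windows listed, or 58.1% (interval 50.7 to 65.3). HK2, on chromosome 2 from 75061254 to 75120486, had 76 of 124 windows listed, or 61.3% (interval 52.5 to 69.4). The intervals of the 2 genes overlapped, and their longest listed runs covered 6500 bp in HK1 and 8500 bp in HK2. PKM, on chromosome 15 from 72491370 to 72523531 on the minus strand, had 52 of 70 windows listed, or 74.3% (interval 63.0 to 83.1). Its longest run began directly after the unlisted stretch at the start and covered 10500 bp, from 3531 to 14030 bp. LDHA, on chromosome 11 from 18416110 to 18429972, had 11 of 34 windows listed, or 32.4% (interval 19.1 to 49.2). Its longest run was the 4 windows that end 110 bp before the start, and none of the 5 windows of its first intron was listed. The enzymes at the end of glycolysis thus had a high share in PKM and a lower one in LDHA. Their intervals did not overlap, but these take each window as a separate draw, and the difference was not tested.

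PDK1, on chromosome 2 from 173420818 to 173473397, had 18 of 111 windows listed, or 16.2% (interval 10.5 to 24.2), the lowest share of the 10 genes. Of these 18, 4 were the run upstream of the start. Its long 3′ untranslated region held 26 windows, of which 2 were listed. VEGFA, on chromosome 6 from 43737948 to 43754224, had 28 of 38 windows listed, or 73.7% (interval 58.0 to 85.0). In VEGFA 2 of the 6 windows of the first intron and 17 of the 18 windows of the later introns were listed. CA9, on chromosome 9 from 35673925 to 35681156, had 7 of 20 windows listed, or 35.0% (interval 18.1 to 56.7). No run of listed windows in CA9 was longer than 2 windows, and one of these runs, from -424 to 575 bp, spanned the start site. Of its 20 windows, 10 have their midpoint inside ARHGEF39, a gene on the other strand, and reads there cannot be given to either gene. The same holds for the 6 upstream windows of SLC2A1, 5 of them listed, which lie in the divergent noncoding gene SLC2A1-DT, for 7 windows upstream of and at the start of PDK1, 4 of them listed, which lie in PDK1-AS1, and for 2 windows of HK2, 1 of them listed, which lie in HK2-DT. BNIP3, on chromosome 10 from 133781188 to 133795427 on the minus strand, had 24 of 35 windows listed, or 68.6% (interval 52.0 to 81.4). Of the BNIP3 windows, 3 lie in a noncoding gene on the other strand and 1 in a further such gene, all of them listed. In LDHA 3 windows, none of them listed, lie in a noncoding gene. Reads in these windows cannot be given to either gene. SLC2A1 and VEGFA have further overlaps with noncoding genes that are not given here.

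**Figure D3:**
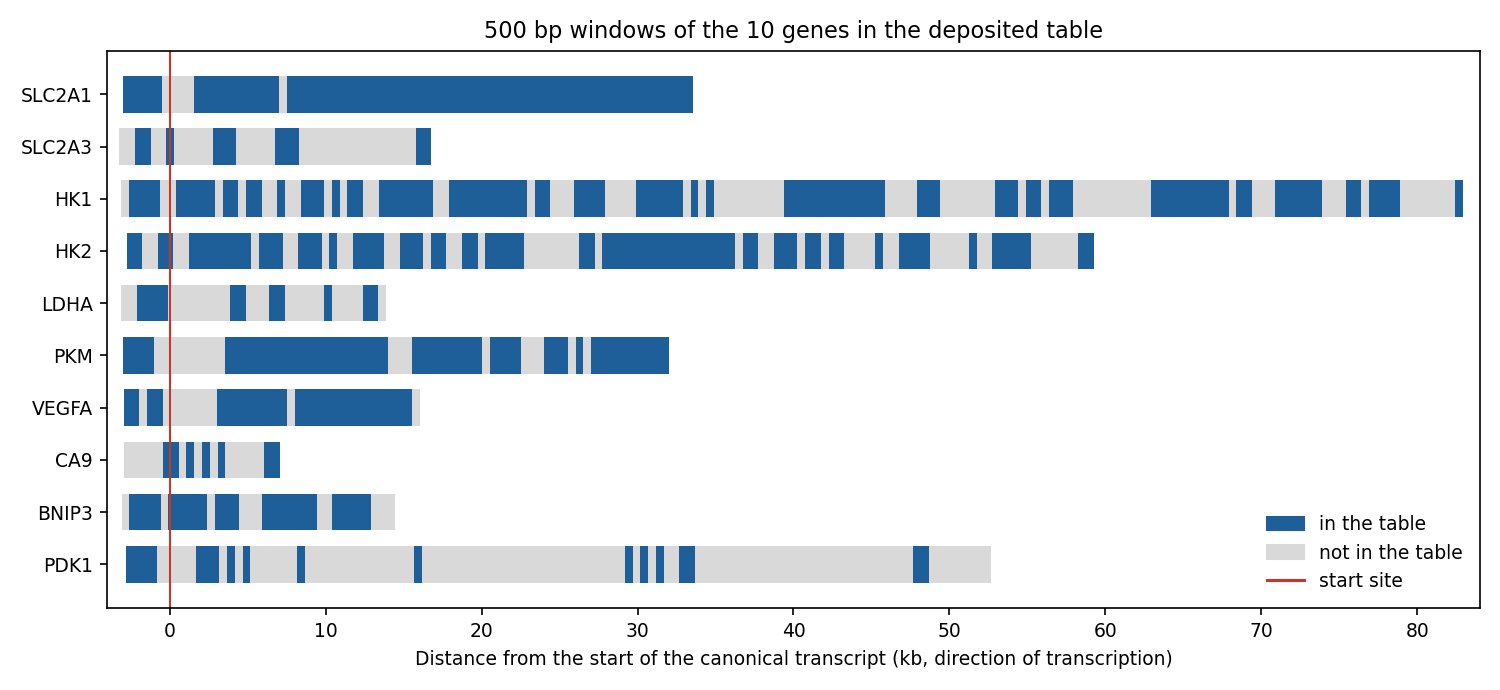
Each row is a gene and each block a 500 bp window, placed by its distance from the start of the canonical transcript (x axis, kb); blue is listed and grey is not. SLC2A1 is blue over nearly its whole length with a grey stretch at the start, and PDK1 is grey over most of its length with blue windows upstream of the start.

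In order of share the genes were SLC2A1, PKM, VEGFA, BNIP3, HK2, HK1, CA9, LDHA, SLC2A3 and PDK1. The interval of SLC2A1 lay just above that of PKM and overlapped that of VEGFA at its edge. From PKM to HK1 each interval overlapped the next, as did each from CA9 to PDK1. The interval of HK1 lay above those of LDHA, SLC2A3 and PDK1 and overlapped that of CA9. As these intervals take each window as a separate draw, they are no test of a difference between genes.

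The number of CpG sites and the GC content of the windows predicted 29.7% listed windows for the 10 genes, against 55.1% found (interval 51.4 to 58.7), a ratio of 1.86. The ratio was 2.62 in PKM, 2.41 in SLC2A1, 2.01 in HK2, 1.91 in BNIP3, 1.81 in HK1, 1.68 in VEGFA and 1.33 in LDHA. It was 1.11 in PDK1, 1.02 in CA9 and 0.973 in SLC2A3, and in these 3 genes and in LDHA the predicted share lay inside the interval of the share found. The low share of PDK1 was thus close to that of autosomal windows of like composition, with a median of 3 CpG sites in its unlisted windows. The median ratio over all protein-coding genes with at least 20 windows was 1.10, and over the 10 genes it was 1.74. Over 19 further genes of glycolysis and the hypoxia response with at least 20 windows it was 1.54 (quartiles 1.11 and 1.75). A ratio above that of all genes was thus not particular to the 10 genes.

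The surroundings of the genes were compared as well. Within 1 Mb on each side, 41.5% of the windows around SLC2A1, 41.3% around VEGFA and 36.0% around BNIP3 were listed, against 18.2% around PKM, 15.6% around PDK1 and 14.8% around CA9. The share of PKM was 4.08 times that of its surroundings, that of HK2 2.75 times, that of CA9 2.36 times and that of SLC2A1 2.25 times. CA9 thus stood above its surroundings although its share was close to that predicted from composition. PDK1 was at 1.04 times its surroundings. No genomic input library was analysed here, and the part of the surroundings in the shares of the genes was not tested.

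**Figure D4:**
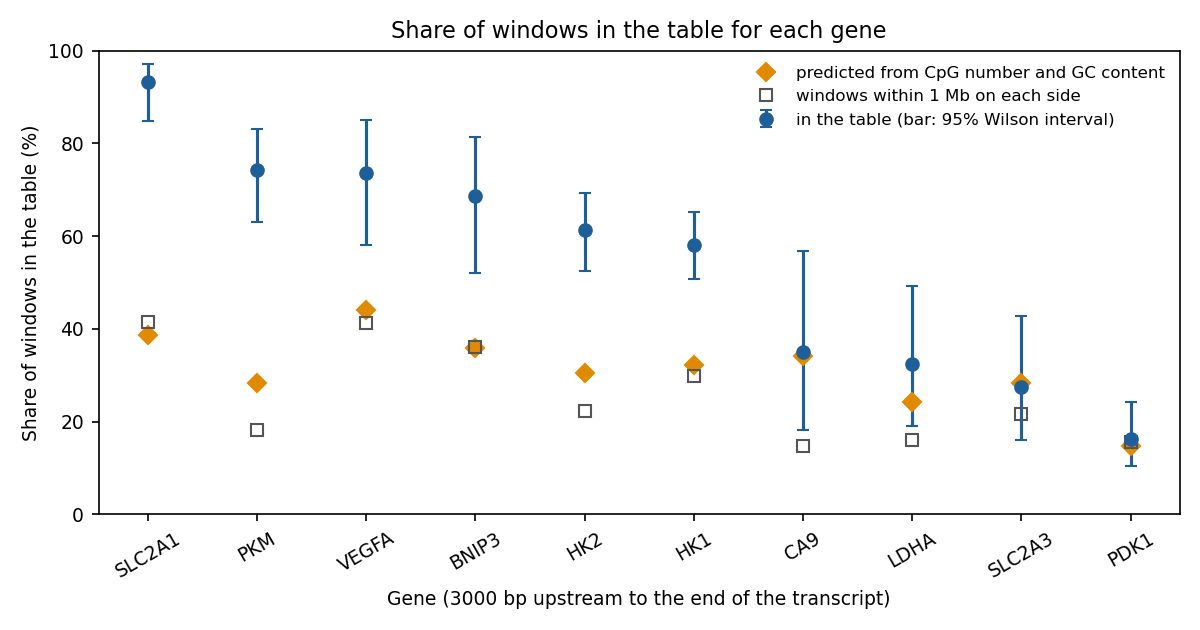
Share of listed windows in each gene (y axis, %), with the genes in order of share on the x axis; circles are the share found with its 95% Wilson interval, diamonds the share predicted from CpG number and GC content, and open squares the share within 1 Mb on each side. The circles of the 6 genes from SLC2A1 to HK1 stand above both other marks, as does that of LDHA by less. Those of CA9, SLC2A3 and PDK1 lie close to the prediction, slightly above it in CA9 and PDK1 and slightly below it in SLC2A3.

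The share of listed windows rose with the number of CpG sites up to 20 and was lower beyond it. It was 23.2% for windows with 2 or fewer CpG sites (22 of 95), 50.5% with 3 to 5 (112 of 222), 65.2% with 6 to 10 (159 of 244) and 77.4% with 11 to 20 (89 of 115). With 21 to 39 CpG sites it was 50.0% (10 of 20), and with 40 or more it was 14.3% (3 of 21, interval 4.98 to 34.6). The 3 listed windows with 40 or more CpG sites were the start window of HK2, the start window of BNIP3 and the BNIP3 window from -1073 to -574 bp. All autosomal windows had shares of 4.98%, 14.6%, 31.5%, 47.4%, 47.9% and 29.4% in the same classes. The 10 genes were above the autosomes in each class up to 20 CpG sites, and in the class of 40 or more the autosomal share lay inside the interval of the 10 genes.

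**Figure D5:**
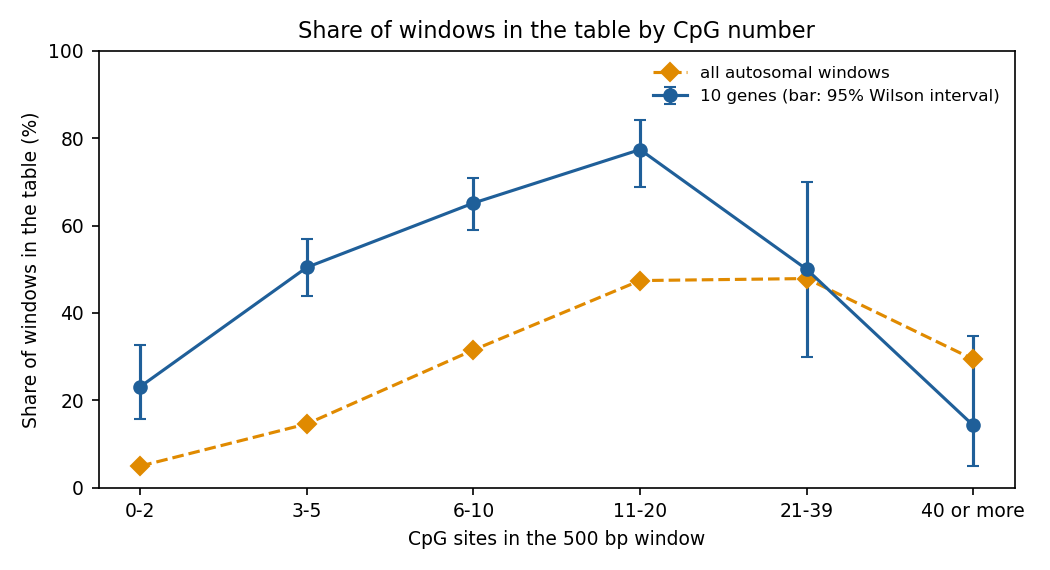
Share of listed windows (y axis, %) by number of CpG sites in the window (x axis), for the 10 genes (circles, 95% Wilson interval) and for all autosomal windows (diamonds). The share in the 10 genes peaks at 77.4% with 11 to 20 CpG sites and falls to 14.3% with 40 or more.

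By position in the gene, 328 of 580 windows in introns were listed (56.6%), 36 of 60 upstream (60.0%), 16 of 28 in coding exons (57.1%) and 14 of 47 in the 3′ untranslated region (29.8%). Of the latter 47 windows, 26 were in PDK1. The first intron had a lower share than the later introns in SLC2A1, SLC2A3, LDHA, PKM and VEGFA, and a higher one in HK1, HK2, CA9, BNIP3 and PDK1. The share was 71.4% in the first intron of HK1 (35 of 49) and 52.8% in its later introns (57 of 108). In PDK1 2 of 5 windows of the first intron and 9 of 71 of the later introns (12.7%) were listed. Predicted shares were 30.1% in introns, 30.8% upstream, 39.9% in coding exons and 17.4% in the 3′ untranslated region.

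Reads that match the genome at several places were removed by the authors, which bears on SLC2A3, a gene with the close relative SLC2A14. In SLC2A3 82.6% of the 50-base sequences starting in a window occurred once in GRCh37 on average, against 92.7% to 100% in the other 9 genes. In the SLC2A3 window from 8077001 to 8077500, in intron 7, 0.4% of them occurred once, and the window was not listed. Of the 18 SLC2A3 windows in which at least 90% of the sequences occurred once, 4 were listed, and of the other 22 windows 7 were listed. In the 10 genes together the listed share was 56.6% of 599 windows with at least 90% and 47.5% of 118 windows below it. The order differed between genes. Windows below 90% were listed more often in SLC2A1, SLC2A3, HK2, LDHA and PKM, and less often in HK1, CA9, BNIP3 and PDK1. VEGFA had no such window. Only exact matches were searched, and mapping with mismatches was not tested.

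Of 27 further genes of glycolysis and the hypoxia response, 26 had a canonical transcript in the annotation. At least 1 listed window lay upstream of 24 of them, and at least 4 upstream of 15. Among all protein-coding genes these shares were 74.7% and 28.8%. The start window was listed in 8 of the 26, and in 3 of the 17 in which it had 40 or more CpG sites. Among all protein-coding genes the start window was listed in 26.7%, and in 18.8% of those with 40 or more CpG sites in it. Genes with all 6 upstream windows listed included SLC16A3, which encodes a lactate exporter, and the gene of the glycolytic enzyme TPI1. In SLC16A3 all 28 windows of the region were listed. None of the 6 was listed in PGK1 and PGK2, which encode the 2 phosphoglycerate kinases. PGK1 lies on chromosome X, and 3 of the 57 windows of the gene were listed. Listed windows were sparse on this chromosome, with 12055 over 155270560 bp. Chromosome 7, the autosome nearest in length, had 44799 over 159138663 bp. ADM, which encodes the vasodilator peptide adrenomedullin, had 1 upstream window listed and 4 of the 11 windows of its region. The median share of listed windows was 51.5% over these 26 genes.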

How the data were processed

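The authors mapped reads of 50 bases to hg19 with Bowtie 0.12.7, kept unique and monoclonal reads and counted them in 500 bp windows with MEDIPS. The deposited table gives the position of each window, the only values used, and 4 columns of counts per library that match no label and were left out. The depth of the libraries is therefore not given.

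A 500 bp grid was built on GRCh37, and every row on the autosomes and chromosome X fell on it. Canonical transcripts came from GENCODE 44 in its GRCh37 version, and 19827 of 19881 protein-coding genes had no undetermined base in their region. The predicted share of listed windows was that of autosomal windows with the same CpG number (40 or more as 1 class) and a GC content in the same step of 25 bases. The calculation was run on simulated data, with windows drawn independently from these same shares times known factors. This checks the calculation only, and cannot show how well composition predicts which windows are listed. The 10 genes are named in full, and of the further genes those with the most and the fewest listed upstream windows, apart from items that are not reported here. Members and lists were chosen with earlier results of these data known. The tools were NumPy 2.4.6, Numba 0.67.0, pandas 2.3.3, SciPy 1.17.1 and Matplotlib 3.10.9 under Python 3.11.15.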

Additional observations from a re-analysis of the deposited data

How the results depend on the processing

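The number of listed windows in the 10 genes was 395, and 402 with any overlap, 500 with the outermost gene ends and 359 with the gene body alone. The number of windows laid on the genes differs between these settings, so that the counts alone do not show whether the share changed. All 10 genes kept a listed promoter window with 1500 bp or 5000 bp upstream, with the outermost 5′ end of the gene taken as its start and with any overlap, and 4 start windows were listed with either start. The ratio of listed to predicted windows in the 10 genes, 1.86, was 2.08 with CpG number alone, 3.13 against all autosomal windows, 2.09 with the prediction from the gene's own chromosome and 2.14 against the windows within 1 Mb. It was 1.95 (1.945) over windows with mostly unique sequence. Among alternatives chosen after seeing the data, it was 1.69 with each gene weighted equally and between 1.77 and 1.92 without SLC2A1, SLC2A3 or PDK1 in turn. The promoter ratio, 1.95, was 3.41 against all autosomal windows and 1.43 with the prediction from promoters. The comparison with all autosomal windows leaves out composition, and the cause of the other shifts was not tested. No paired analysis was possible because no value column could be tied to a sample, and no condition was repeated. Depth could not be assessed, and an unlisted window may have had reads or none.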
